A study of Chlorella sorokiniana and Chromochloris zofingiensis with 12 samples.

Results

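The response of the green alga Chlorella sorokiniana, strain NIES-2168, to strong light with glucose was described from 6 small RNA libraries, 3 of stress and 3 of normal cultures, out of 12 in the whole series. The libraries were chosen by their labels alone. Normal cultures were kept in Bold's Basal Medium at 27 °C with shaking at 30 rpm, under continuous light of 10 µmol photons and with no glucose named. The stress cultures were grown the same way to mid log phase and were then given 100 µmol photons of light and 2% glucose. Light and sugar were changed together, so their effects cannot be told apart. The labels do not say whether replicates came from separate cultures, so p-values measure only the spread between these libraries, which may be technical.

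Chlorella is a unicellular green alga that grows on light alone and also takes up glucose. Small RNA libraries hold miRNAs and siRNAs, which guide the silencing of other RNAs, together with pieces of longer RNAs. In eukaryotes 18S, 5.8S and 28S ribosomal RNA (rRNA) are cut from a single precursor, and their ends are set by endonucleases and by trimming exonucleases. tRNAs carry amino acids to the ribosome, and small nucleolar RNAs (snoRNAs) guide the modification and cutting of rRNA.

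A tag is a distinct read sequence with its count, and each library lists its 100 commonest tags. The 6 lists together held 166 tags, which fell into 41 groups of tags sharing a run of 12 bases. Each group is named here by its lead tag, the one with most reads. All 166 tags end in A, and that last base was left out when tags were joined. The sequences below are shown because the results turn on them. In the first 10, capitals mark 9 letters that in green algae stand at an end of a nuclear rRNA. These letters were searched on the strand as read, after the tags had been seen, and the tags were not mapped to an algal genome. The letters CTCAGCGTC were in 12.7% of the 166 tags and ACTCTCAAC in 15.1%. CCTGAGCTC was in 6.63% of them, TGGTTGATC in 2.41% and GGATCATTG in 1.81%.
5.8S end, lead tag: tgtctgcCTCAGCGTCggta
5.8S end, short tag: tgcCTCAGCGTCggta
5.8S end, long tag: gggcatgtctgcCTCAGCGTCggta
28S start, lead tag: tcgaCCTGAGCTCaggcaa
5.8S start, lead tag: aACTCTCAACaacggataa
5.8S start, tag from 5 bases upstream: aagacaACTCTCAACaa
5.8S start, tag from 6 bases upstream: aaagacaACTCTCAACaa
18S end, lead tag: gcggaaGGATCATTGa
18S end, long tag: ctgcggaaGGATCATTGa
18S start, lead tag: accTGGTTGATCctgcca

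The other groups of at least 1% of the listed reads that are described were not named from rRNA. In the next tags capitals mark the run that every tag of the group holds. The lone tag shared no 12 bases with another and has no capitals.
Lone tag: ccttgtattcttgcttga
Group A, lead tag: gaCCGAATGATTTTGACa
Group A, longer tag: aacagaCCGAATGATTTTGACa
Group B, lead tag: tcagccgttGTTCTTACGATTTGta
Group B, longer tag: ttcagccgttGTTCTTACGATTTGta
Group B, short tag: tGTTCTTACGATTTGta

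Listed reads came to 406492, 162825 and 46518 in normal replicates 1 to 3 and to 191106, 159177 and 130737 in stress replicates 1 to 3. These sums are not sequencing depths, and a tag at 0 was outside that library's list, whose smallest count ranged from 50 to 406 reads. As a share of listed reads that limit was 0.0999% to 0.11% in normal and 0.16% to 0.204% in stress libraries, so the stress lists stop at a higher level. The 10 commonest tags took 61.4%, 60.5% and 62.2% of listed reads in normal libraries and 47.9%, 45.6% and 45.3% under stress. Tags with letters of nuclear rRNA took 78.3%, 75.3% and 84.1% in the normal cultures and 67%, 63.9% and 64.3% under stress. Tags with letters of 16S rRNA, which chloroplasts and bacteria share, made up 0.524% ± 0.0571 (SD, n = 3) there and 2.53% ± 1.05 under stress. That sum includes 3 tags whose letters were not assigned to a named place, listed in stress replicate 2 alone at 0.671%. Chloroplast and bacterial 16S rRNA cannot be told apart here, and the part of either in the other results was not tested. None of these 3 shares overlapped between the groups, each with an exact two-sided permutation p = 0.1, the smallest that 3 libraries against 3 allow. Of the universal primers searched as runs of 12 bases, the one for the start of 18S rRNA matched 4 tags and 1 for the inside of small-subunit rRNA matched 3.

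**Figure D1:**
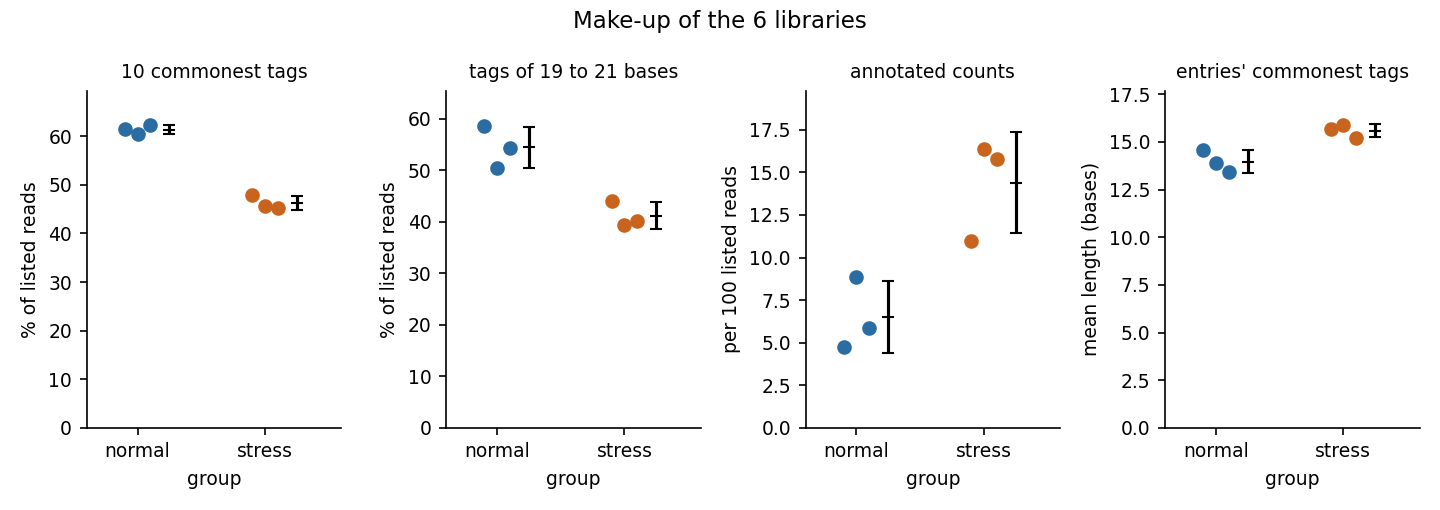
Points are the 6 libraries, normal left and stress right, and bars give the mean with its SD over 3 libraries. From left to right the axes show the percent of listed reads in the 10 commonest tags, the percent in tags of 19 to 21 bases, annotated counts per 100 listed reads, and the mean length in bases of the commonest tags behind annotated entries. In each panel all 3 stress libraries lie on one side of the normal ones, for example 39.3% to 44.1% against 50.4% to 58.5% for tags of 19 to 21 bases.

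Tags of 19 to 21 bases, with the last A counted, made up 54.4% ± 4.06 (SD, n = 3) of the reads listed for the normal cultures and 41.2% ± 2.55 of those listed under stress. Tags of 16 to 18 bases were at 33.2% ± 2.57 and 41.2% ± 1.9, and tags of 25 bases and over at 2.91% ± 0.749 and 6.41% ± 0.638. Both shorter and longer tags thus held more of the listed reads, and the mean length differed by 0.112 bases only. Reads starting with T were at 45.9% ± 2.47 and 38.7% ± 2.27, and reads starting with C at 12.9% ± 1.08 and 18.4% ± 0.915. First base A was at 28.9% ± 2.92 and 28.3% ± 0.814, and these overlapped. Each of the other shares in this paragraph separated the groups (exact two-sided permutation test, p = 0.1, adjusted 0.114 over the 8 shares of length and first base). With each listed tag counted once, the difference for first base C turned to -4.67 percentage points.

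Among the groups of at least 1% of listed reads, the end of 18S rRNA and the lone tag rose the most. Tags of the 18S end, the last bases of the small ribosomal subunit's RNA, took 0.387%, 0.284% and 0.434% of the normal lists and 2.94%, 3.25% and 3.19% under stress. All stress libraries lay far above all normal ones. In reads this was 1572, 463 and 202 against 5622, 5175 and 4164, a rise of 3.29 ± 0.18 (SE) on the log2 scale (adjusted p = 0.000137 in edgeR's quasi-likelihood fit, with Benjamini-Hochberg adjustment). Tags unlisted in normal libraries count as 0 in these sums, so the rise may be overstated. The lead tag of the 18S end, listed in all 6 libraries, rose by 2.11 ± 0.15 (edgeR's fit of single tags, adjusted p = 0.00175). The lone tag, whose RNA of origin is not known here, was at 0.111%, 0.27% and 0.514% in the normal cultures and at 2.81%, 3.54% and 4.88% under stress. This was a rise of 3.87 ± 0.62 (edgeR, adjusted p = 0.00581). Both calls held in the group fit without each library in turn.

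Groups A and B, whose tags share 1 end and differ in their start, were also higher under stress. Group A, 11 tags, made up 5.84%, 8.18% and 4.91% of the normal lists and 11.7%, 11.8% and 12.3% of the stress lists. Group B, 12 tags, was at 1.52%, 3.74% and 3.54% and at 7.02%, 7.74% and 8.28%. Neither group's libraries overlapped, and the stress libraries lay close together. Group A rose by 1.09 ± 0.25 and group B by 1.58 ± 0.37 on the log2 scale (edgeR, Benjamini-Hochberg adjusted p = 0.0168 for each). Both groups hold tags listed under stress and in no normal library. These count as 0 in the normal sums, so the rises may be overstated. Group A kept its call without normal replicate 1 or 2 alone (adjusted p = 0.0472 and 0.00531), and p was 0.0524 to 0.116 without any other library. Group B kept its call without normal replicate 1 alone (adjusted p = 0.00401), and p was 0.0812 to 0.125 otherwise.

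The largest groups of rRNA letters differed less than these. The 5.8S end, the RNA that pairs with 28S in the large subunit, took 36.7%, 33.5% and 39% of the normal lists and 28.3%, 29.7% and 30% of the stress lists. Its level relative to the other groups fell by 0.11 ± 0.03 on the log2 scale (edgeR, Benjamini-Hochberg adjusted p = 0.0182), a call that held without normal replicate 1 (0.0125) and was lost without any other library (0.116 to 0.215). The difference was -0.30 with library totals (adjusted p = 0.0126) and -0.47 with DESeq2 (0.00252). With the replicate number added to the edgeR fit it was -0.11 and did not pass (adjusted p = 0.0672). The 28S start was at 21.7%, 18.5% and 18.5% and at 16.8%, 12.9% and 12.7%, with a log2 difference of -0.28 ± 0.16 (edgeR, adjusted p = 0.255). It passed as lower with library totals (0.0344) and with DESeq2 (0.000281). The 5.8S start was at 14.3%, 18.9% and 21.2% and at 14.6%, 14.1% and 15.3%, with -0.11 ± 0.13 (edgeR, adjusted p = 0.569). The 18S start differed by -0.03 ± 0.19 (edgeR, adjusted p = 0.906). The end of the same RNA rose by 3.29 as a group and by 2.11 in its lead tag, fitted as a single tag.

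In all, 11 of 22 tested groups passed, or 50%, with 7 higher and 4 lower (adjusted p below 0.05 in edgeR), and the median log2 difference was -0.07. Of the calls, 5 are groups unlisted in all libraries of the other condition, for which the fitted fold is no measure. Among these, a lone tag with letters from inside 28S rRNA was listed in normal libraries alone with 1244, 433 and 159 reads, and its share was at least 1.65-fold lower under stress. A lone tag with letters from inside 18S rRNA was listed under stress alone with 563, 383 and 408 reads, and its share was at least 2.67-fold higher. A group of 4 tags with 16S letters was also listed under stress alone, with 716, 794 and 1263 reads, and its share was at least 1.45-fold higher. These bounds set each unlisted tag at its library's smallest listed share. The remaining 2 such groups, lone tags with 494, 184 and 80 and with 476, 199 and 80 reads in normal libraries alone, lay too low for a bound. The last called group, 3 tags with letters of the 16S start, was at 0.464%, 0.577% and 0.531% and at 0.776%, 0.729% and 1.05%. It rose by 0.89 ± 0.21 (edgeR, adjusted p = 0.0168), a call lost with DESeq2 (0.153) and without each library in turn (0.0991 to 0.366).

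**Figure D2:**
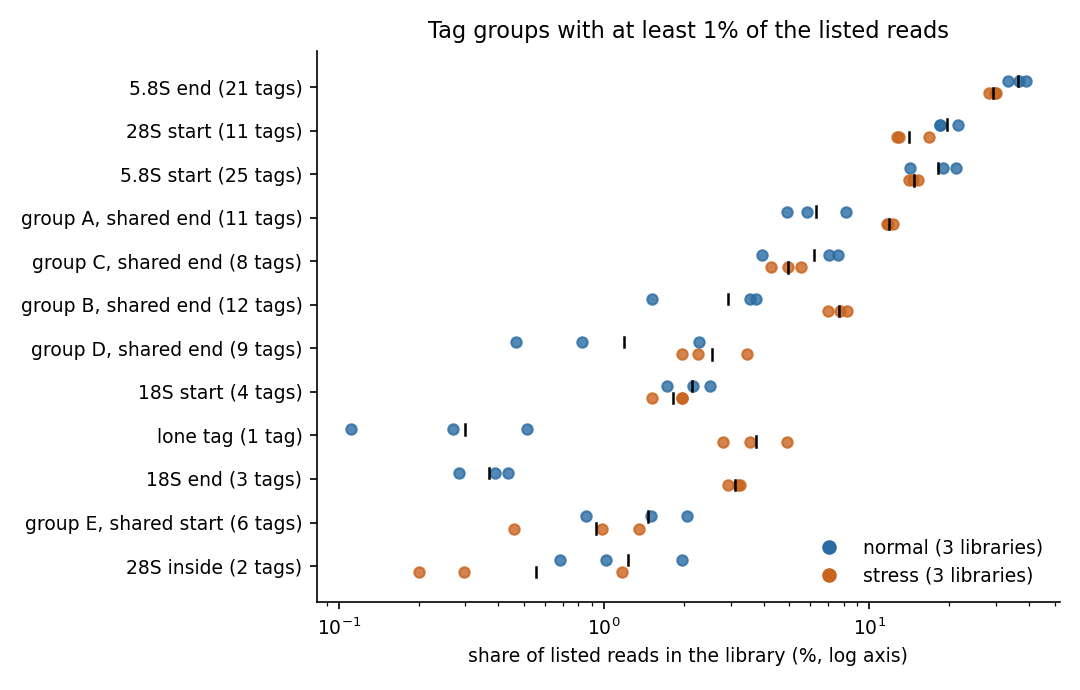
The horizontal log axis gives the percent of a library's listed reads taken by each of the 12 tag groups with at least 1% of all listed reads. Points are libraries (normal in blue above, stress in orange below), and black ticks are group means. The 18S end (0.284% to 0.434% against 2.94% to 3.25%), the lone tag, and groups A and B stand higher under stress, and the 5.8S end and the 28S start stand lower.

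Within most groups whose tags end together, the start of the lead tag held a smaller share of the reads under stress. The lead tag was picked by reads summed over these same 6 libraries, without scaling. Normal replicate 1 gave the most listed reads, 406492, so the pick can lean to starts that are high there. The loss of share is thus a description and not a test. In the 5.8S end group the start of the lead tag held 48.9%, 47% and 48.8% of its reads in the normal cultures and 38%, 34% and 34.7% under stress. Starts 3 and 4 bases downstream were at 7.34% ± 0.725 and 1.98% ± 0.241 (SD, n = 3) in the normal cultures and at 11.9% ± 1.02 and 7.27% ± 1.29 under stress. The lead tag fell by 0.98 ± 0.10 on the log2 scale, and the short tag, 4 bases shorter, rose by 1.32 ± 0.17 (edgeR's fit of single tags, adjusted p = 0.00175 and 0.00195). The long tag, 5 bases longer, was listed under stress alone with 862, 1138 and 767 reads. Its share of listed reads was at least 5.52-fold higher. With unlisted tags at the smallest listed count its log2 difference was 1.81. That fit takes the filled-in limits as counts, so no p-value is given for it. The long and the short tag thus rose while the lead tag between them fell. The calls of the lead and the short tag held without each library in turn.

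In group B the lead start held 54.2%, 51.4% and 55.7% of the reads in the normal cultures and 29.4%, 26.3% and 24.9% under stress. Starts 3, 5 and 8 bases downstream were listed under stress alone, where they held 5.68% ± 1.09, 6.3% ± 0.896 and 5.75% ± 0.527 (SD, n = 3). The short tag shown above was 1 of these, with 783, 768 and 562 reads, and its share of listed reads was at least 4.17-fold higher. One base upstream, the longer tag went from 0, 294 and 68 reads to 2027, 1884 and 1445. It did not pass as a single tag, with normal replicate 1 unlisted (edgeR, Benjamini-Hochberg adjusted p = 0.306). It passed without normal replicate 1 (edgeR, adjusted p = 0.00111). With unlisted tags at the smallest listed count the log2 difference was 2.35, given without a p-value because the filled-in limit was not a count.

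In group A the starts 4 and 7 bases upstream were listed under stress alone and held 5.09% ± 0.192 and 3.5% ± 0.173 of the group's reads there. The longer tag shown above, from 4 bases upstream, had 1099, 993 and 812 reads, and its share of listed reads was at least 5.74-fold higher. The tag from 1 base upstream went from 773, 383 and 60 reads to 1645, 1523 and 1256, a rise of 2.08 ± 0.24 (edgeR, Benjamini-Hochberg adjusted p = 0.00175). The lead start of group A did not stand apart, at 29%, 19.5% and 18.3% against 19.9%, 18.8% and 19.6% of the group's reads.

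The lead start lost share in 5 of the 6 shared-end groups tabulated, all but group A, with no overlap between the groups of libraries. Other starts also lacked overlap in each group, so this does not set the lead start apart. In the largest group 6 starts were higher, 2 lower and 1 overlapped. These counts were 4, 3 and 4 in group A and 5, 2 and 4 in group B. They were 3, 1 and 4 in group C, 1, 1 and 7 in group D and 1, 1 and 1 in the 18S end group. The lower starts include the lead start, except in group A. In the 18S end group the lead start went from 78.8% ± 18.5 to 46.2% ± 4.52 (SD, n = 3). In group D it went from 58.1% ± 11.9 to 24.7% ± 1.81, and in group C from 55.9% ± 5.02 to 40.7% ± 4.43. Each tag of a group that a library did not list was then set at that library's smallest listed count. The lead start still separated the libraries in all 5. The differences were smaller for the 18S end, at 55.1% against 46.2%, and for group D, at 34.4% against 21.4%. For the 18S end the closest libraries were at 52.6% in normal replicate 1 and 51.2% in stress replicate 2. Tags found in no list were not filled in, so the separation is not shown for all starts. The 100% of normal replicate 2 in the 18S end group rests on unlisted tags. The lead tags of groups C and D follow. In group D capitals mark the run that every tag of the group holds. In group C they mark letters shared with the read behind the entry mir-396a, described below.
Group C, lead tag: AAGCTGTGGGAtatta
Group D, lead tag: tccCCAGTGCCGTAGTGTa

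**Figure D3:**
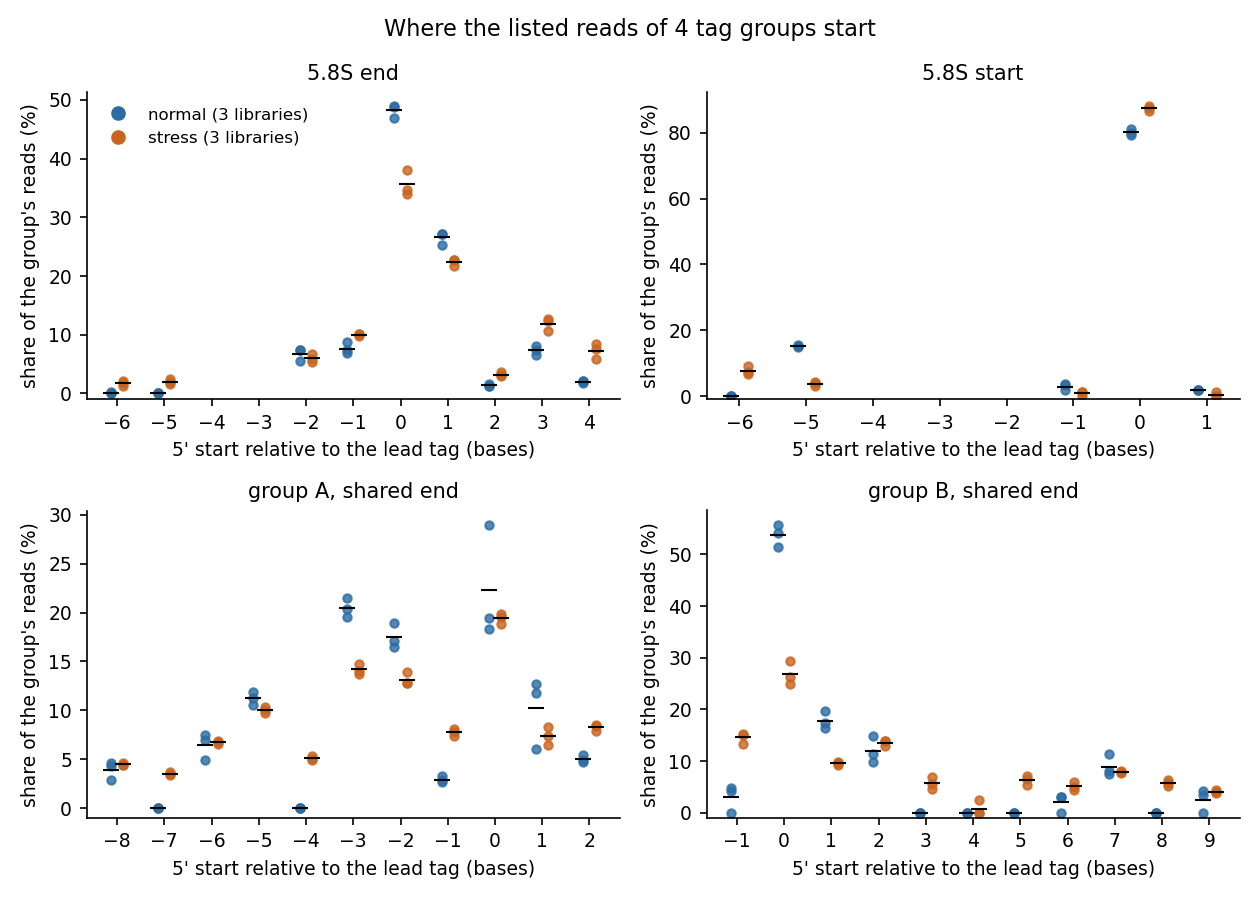
Each panel gives, for 1 tag group, the percent of the group's listed reads (vertical axis) that start at each position, counted in bases from the start of the lead tag (horizontal axis, negative upstream). Points are libraries (normal blue, stress orange), and black ticks are means over 3 libraries. The lead start is lower under stress in the 5.8S end group (34% to 38% against 47% to 48.9%) and in group B, and the 5.8S start group moves from position -5 to -6.

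The 5.8S start group differed by a single base at its upstream start. Tags starting 5 bases upstream of the lead tag held 15.3%, 15.4% and 15% of the reads in the normal cultures and 2.99%, 4.3% and 3.91% under stress. Tags starting 6 bases upstream, with 1 more A, were unlisted in all normal libraries and held 6.68%, 9.02% and 7.4% under stress. The normal libraries thus had 8923, 4744 and 1476 reads from 5 bases upstream and none listed from 6, and the stress libraries had 835, 963 and 782 from 5 and 1862, 2021 and 1480 from 6. With unlisted tags at the smallest listed count, the ratio of the longer to the shorter start was at most 0.136 to 0.182 in normal libraries and at least 0.831 to 0.904 in stress libraries. The ratios of the groups thus did not overlap at these limits. Tags found in no list were not counted in them.

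As single tags, the one shown from 5 bases upstream went from 3221, 1854 and 501 reads to 464, 583 and 453. It fell by 1.91 ± 0.23 on the log2 scale (edgeR, Benjamini-Hochberg adjusted p = 0.00175). The one from 6 bases upstream had 605, 766 and 531 reads under stress alone, and its share of listed reads was at least 3.79-fold higher. All 4 tags from 6 bases upstream were listed in the 3 stress libraries and in no normal one. The lead tag of the group, which starts at 0, fell by 0.70 ± 0.17 (edgeR, adjusted p = 0.0277), a call lost with library totals (0.054) and without 4 of the 6 libraries in turn (0.0609 to 0.0987).

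Over all single tags, 42 of 106 tested passed, or 39.6%, 24 of them higher and 18 lower by edgeR's fit of single tags, and the median log2 difference was 0.07. Shares did not overlap between the groups for 70 of the 106, or 66%. Of the 166 tags, 54 were listed in all 6 libraries, 37 in stress libraries alone and 42 in normal libraries alone. Of these, 14 were listed in all 3 stress libraries and 7 in all 3 normal libraries. They make up 14 of the 24 higher and 7 of the 18 lower calls. Each was entered as 0 throughout the other condition, so its fitted fold is no measure. These calls rest partly on zeros that mark the limit of a list and not a count. Some of the 7 lay too low for a bound on the fold.

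The second kind of table counts reads matched to RNAs of the plant Arabidopsis thaliana, the build TAIR9 per the submitters' processing notes. Annotated counts, summed over entries, came to 19408, 14414 and 2718 in normal and to 21004, 26102 and 20686 in stress libraries. Per 100 listed reads this was 4.77, 8.85 and 5.84 in normal and 11, 16.4 and 15.8 in stress libraries, with no overlap (exact two-sided permutation test, p = 0.1). A read was counted at every entry it matched, so 523 of the 633 entries had the same 6 counts as another, and the 189 distinct count profiles were each entered once in the tests. Profiles that differ by a few counts stayed separate, so numbers of profiles are not numbers of independent RNAs.

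tRNA entries took most of the annotated counts, at 81.3%, 86.6% and 79.8% in normal and 85.5%, 88.1% and 88.4% in stress libraries. The shares of tRNA, snoRNA, rRNA and precursor miRNA overlapped between the groups (exact two-sided permutation p = 0.2 to 0.3). Mature miRNA entries were at 3.65%, 3.3% and 6.18% in normal and at 2.86%, 2.16% and 2.64% in stress libraries, without overlap (exact two-sided permutation p = 0.1, adjusted 0.25 over 5 classes). Precursor miRNA entries were at 6.17% ± 1.8 (SD, n = 3) and 4.15% ± 0.489.

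Calls among the annotated profiles depended on how the libraries were scaled and tested, so the shift of all profiles is given first. DESeq2 differs from the other scalings, all fitted in edgeR, in its test as well as its size factors. Its calls therefore mix test and scaling. With TMM factors 41 of 63 profiles passed, or 65.1%, with 40 higher and 1 lower, and the median log2 difference was 1.41. With annotated totals alone 17 were higher and 8 lower with a median of 0.61, with DESeq2 size factors 11 higher and 16 lower with a median of 0.17, and with listed-read totals 38 higher and 1 lower with a median of 1.57. Shares of annotated counts did not overlap for 35 of the 63, or 55.6%. Passing in the same direction with all 4 scalings were 12 profiles, or 19%, with 11 higher and 1 lower, and these are the ones described. They comprise 1 miRNA precursor, 1 rRNA, 4 snoRNA and 6 tRNA profiles, out of 5, 5, 18 and 31 tested, and none of 4 mature miRNA profiles.

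**Figure D4:**
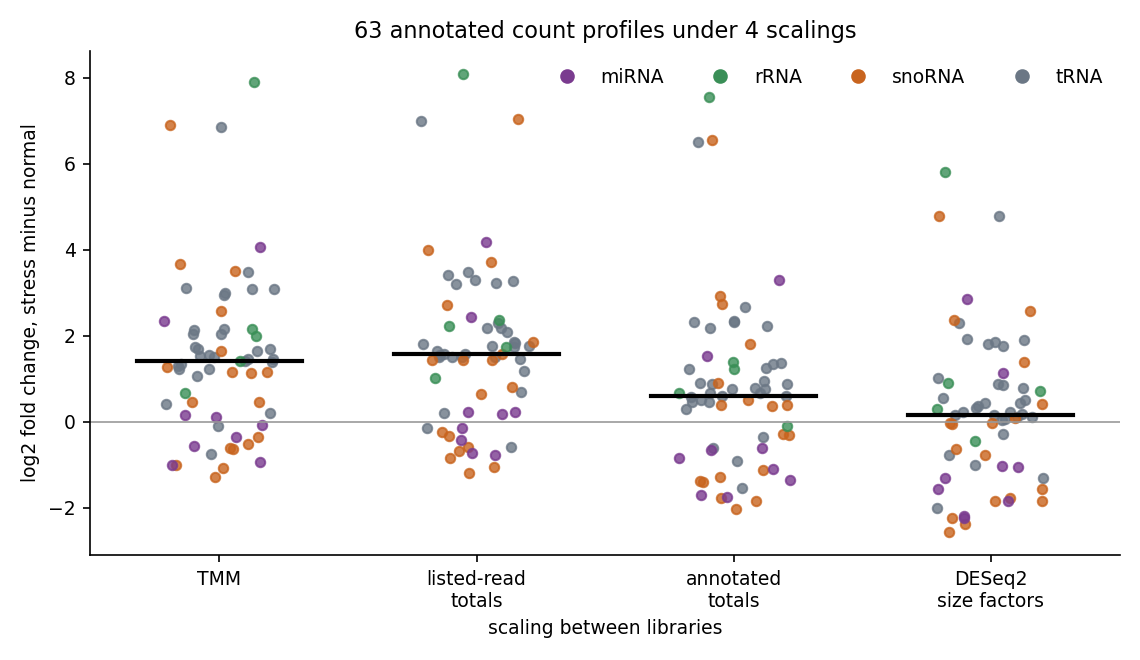
Each point is 1 of the 63 tested annotated count profiles, coloured by RNA class, and the vertical axis is its log2 fold change, stress minus normal, under the scaling named below it. Black bars are medians, which lie at 1.41, 1.57, 0.61 and 0.17 from left to right. The medians fall from listed-read totals to DESeq2 size factors, and miRNA profiles lie mostly below the bar.

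For 3 profiles, no normal library had a count. The 5S rRNA entry of Arabidopsis chromosome 5, 12024975 to 12025093, had 23, 40 and 25 counts in stress libraries. 5S rRNA is the small RNA of the large ribosomal subunit that is made apart from the precursor. Against 3 counts per normal library its share of annotated counts was at least 2.62-fold higher. With DESeq2 only 1 of the 5 tested rRNA profiles passed. Another 5S profile had 14, 9 and 2 counts in normal libraries. The group of 4 tags with letters of the 5S start took 1.2%, 0.574% and 0.544% of the normal lists. Under stress it took 0.913%, 1.18% and 0.642%, which overlapped, with a log2 difference of 0.43 ± 0.44 (edgeR, adjusted p = 0.556). The snoRNA snoR24 had 15, 16 and 12 counts, and a tRNA entry of chromosome 5, 7981398 to 7981469, had 16, 14 and 12, with shares at least 1.30-fold and 1.28-fold higher. These bounds are low because normal replicate 3 had few annotated counts. The reads behind the last 2 entries were as follows, both from stress replicate 1.
snoR24: ggatgtttcttcgatga
tRNA of chromosome 5: atagtgtagtggttatcactca

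The precursor mir-5645e, an Arabidopsis miRNA gene, had 7, 10 and 0 counts in normal and 98, 108 and 63 in stress libraries. It rose by 4.08 ± 0.72 on the log2 scale (edgeR, Benjamini-Hochberg adjusted p = 4.26e-07), and by 2.85 with DESeq2 size factors, the lowest of the 4 scalings. Its commonest read in stress replicate 1 had 13 bases and matched 26 loci of Arabidopsis. Its call held without each library in turn. For the other 8 profiles with a count in a normal library, the call was lost without at least 3 of the 6 libraries in turn, with adjusted p from 0.0622 to 0.283 there.
mir-5645e: cgataggactcta

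Of those 8, the tRNA profile of chromosome 3, 7104309 to 7104392, went from 16, 11 and 2 counts to 81, 90 and 62, a rise of 3.09 ± 0.68 (edgeR, adjusted p = 3.56e-05). A tRNA entry of chromosome 1, 26382154 to 26382225, went from 5, 14 and 0 to 81, 73 and 45, a rise of 3.48 ± 0.69 (edgeR, adjusted p = 8.92e-06). The snoRNAs snoZ267 and snoR35 had 0 to 6 counts in normal and 11 to 35 in stress libraries. The only profile lower with all 4 scalings was the snoRNA snoR114, with 38, 20 and 13 counts in normal and 13, 12 and 6 in stress libraries. It fell by 1.28 ± 0.44 (edgeR, adjusted p = 0.00824), a call lost without any 1 stress replicate (adjusted p = 0.0622 to 0.274).

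The most abundant tRNA profile, 9 entries with the same counts, had 696, 525 and 154 counts in normal and 1350, 1680 and 1339 in stress libraries. Its log2 difference was 1.64 ± 0.23 with TMM factors (edgeR, adjusted p = 1.68e-10) and 0.44 with DESeq2 size factors (adjusted p = 0.216), near the median of all profiles under each. Another tRNA profile, 15 entries, had 441, 316 and 30 counts in normal and 96, 169 and 118 in stress libraries. It was at -0.75 ± 0.48 with TMM factors (edgeR, adjusted p = 0.156) and at -2.01 with DESeq2 size factors (adjusted p = 0.000237). The commonest reads of both start with the same 3 bases and differ further on.
tRNA profile of 9 entries: gggctgtagctcaaatggtagagca
tRNA profile of 15 entries: gggatatagctcaga

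miRNA entries were few and rested on short reads. The sheets named 74 miRNA entries of 47 families, and 9 profiles had enough counts to be tested. For all 9 the commonest read had 10 to 15 bases, shorter than a plant miRNA, and their median number of matching loci in Arabidopsis was 26. Besides mir-5645e, miR-5638b passed with TMM factors, from 19, 29 and 3 counts to 40, 87 and 111, at 2.35 ± 0.63 (edgeR, adjusted p = 0.000904) and at 1.13 with DESeq2 size factors (adjusted p = 0.105). The other 7 did not pass with TMM factors, and 6 of them passed as lower with DESeq2, where 16 of all 63 profiles did.

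By function, the copper and oxidative stress families miR397, miR398, miR408 and miR857 were named in no library. Of the phosphate and sulfate families 1 profile was tested, of the growth and development families 2, of the auxin and stress families 2 and of the small RNA machinery families none, and no tested one passed with TMM factors, against 65.1% of all profiles. All 5 passed as lower with DESeq2 (adjusted p = 0.000257 to 0.015), where 16 of all 63 profiles passed as lower and 11 as higher. These 5 are not separate results. The growth profiles mir-396a and mir-396b differ in stress replicate 3 alone, at 13 and 15 counts, and miR-169m and its precursor share their normal counts. miR-169m, whose family targets NF-YA transcription factors in Arabidopsis, had 389, 353 and 130 counts in normal and 357, 335 and 353 in stress libraries. Its log2 difference was 0.11 ± 0.35 (edgeR, adjusted p = 0.777) and -1.06 with DESeq2 size factors (adjusted p = 0.012), so its direction turned with the scaling. miR-399b, of the family that responds to phosphate in Arabidopsis, had 29, 13 and 6 counts and 14, 9 and 8. It was at -0.57 ± 0.56 with TMM factors (edgeR, adjusted p = 0.373), -1.34 with library totals (0.0371) and -1.84 with DESeq2 (0.00847).

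Several entries shared their letters with abundant tags, and these pairs are shown with the shared letters in capitals. For 14 of the 63 tested profiles, or 22.2%, the commonest read without its last A lay inside a listed tag, and for 6 of these the tag belonged to the 5.8S end, the 28S start, the 5.8S start or group C. Among the 9 tested miRNA profiles it was 4. The read behind mir-396a lies within the lead tag of group C shown above, the read behind mir-5652 within a tag of the 5.8S end, and the read behind the snoRNA snoZ159 within the lead tag of the 28S start.
mir-396a: AAGCTGTGGGAa
mir-5652: AGCGTCGGCa
5.8S end, tag holding it: tgtctgcctcAGCGTCGGCa
snoZ159: CTGAGCTCAGGCAa

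The precursor mir-396a, of a family that targets growth regulating factors in Arabidopsis, had 76, 29 and 9 counts in normal and 21, 18 and 13 in stress libraries, of which 68, 21, 9, 18, 11 and 13 were the read shown. It was at -1.0 ± 0.47 with TMM factors (edgeR, adjusted p = 0.0505) and at -2.24 with DESeq2 size factors (adjusted p = 0.000257). The lead tag of group C had 15503, 6706 and 1078 reads under normal light and 3980, 2630 and 2973 under stress. It was at -1.01 ± 0.26 in the fit of single tags (edgeR, adjusted p = 0.0315). The call was lost with library totals (0.0678) and with the replicate number added to the fit (0.0515). It was also lost without any library in turn but normal replicate 3 (0.0904 to 0.142). mir-5652 had 206, 55 and 21 counts and 61, 59 and 110, at -0.08 ± 0.58 (edgeR, adjusted p = 0.895). Whether these entries and tags come from the same RNA was not tested. Where the same tag stood in both tables, for 2 library values, the counts were equal.

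The reads behind the entries were longer under stress. Over the distinct commonest reads of a library, the mean length weighted by count was 14.6, 13.9 and 13.4 bases in normal and 15.7, 15.9 and 15.2 in stress libraries. Reads of 15 bases or fewer made up 78.8%, 90.8% and 91.3% of those counts in normal and 67.6%, 66.5% and 66.3% under stress. The groups did not overlap (exact two-sided permutation p = 0.1 for the mean length), and the number of entries named, 355, 261 and 113 against 507, 483 and 417, moved with it.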

How the data were processed

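Tag tables and annotation sheets hold counts of reads that the authors deposited, per the file headers; replicates were not pooled. Other values used are the number of loci a read matches, also per the file headers. The submitters' processing notes name DESeq and TAIR9. Not given in the sources used here: trimming and mapping tools. Summed listed reads are not the depth, which is unknown for both tables, and molecular identifiers are absent. The bounds cover only the limit set for an unlisted tag or absent entry, and they include no counting error.

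Stress was compared with normal by edgeR 4.0.16 (R 4.3.3) with TMM, filterByExpr and a robust quasi-likelihood fit on 6 libraries, Benjamini-Hochberg adjusted p below 0.05. DESeq2 1.42.0 was an alternative. SE is the log2 fold change over the root of F. Shares were compared by exact two-sided permutation (scipy 1.17.1). Entries absent from a sheet were taken as 0, and unlisted groups were bounded with each tag at the smallest listed share or, for entries, at 3 counts per library. The edgeR fit was tested on simulated counts, which were drawn without the cut that ends each list. Figures used matplotlib 3.10.9.

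The libraries were taken by label, and the comparison and lists were chosen with earlier results of these data known. Named were the 10 called tags and 8 called profiles with the largest non-overlapping change each way, the 10 commonest tags, called groups, groups of at least 1%, the 3 highest profiles per class and tested miRNAs, and some are given by count only. The 12 profiles called with all 4 scalings, the start positions and the entries' reads were chosen after their values were seen. For annotated profiles, same-numbered libraries deviated together (r = 0.216, 0.241 and 0.173), a hint of pairing from the data alone. The main fit was unpaired, and the replicate block changed no call named among these profiles. Tags resembling sequence of another organism are not printed.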

Additional observations from a re-analysis of the deposited data

How the results depend on the processing

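Counts of calls that moved by over 1.5 times were as follows. Single tags went from 42 to 20 with the replicate block (9 higher, 11 lower), 21 among tags listed in all 6 libraries and 68 with unlisted tags at the smallest listed count. The last fit takes the filled-in limits as counts, so its calls rest partly on values that were not observed. Tag groups went from 11 to 5 without the filter and to 7 with the replicate block (all higher). Deviations of same-numbered libraries correlated at 0.0661, 0.259 and 0.342 for tags, each best with its own number, a hint from the data and not the design. For groups they correlated at -0.48, 0.278 and -0.448. The main fits of tags, groups and profiles all left the libraries unpaired, so calls lost with the replicate block depend on that choice. Annotated profiles went from 41 to 25 with library totals, 27 with DESeq2 and 17 without tRNA profiles (an alternative chosen after seeing the data, as was scaling to listed reads), and to between 6 and 31 without each library in turn, lowest without stress replicate 2. With the replicate block 39 passed. Of the 41, 12 passed with DESeq2 and 18 with library totals.

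With each listed tag counted once, the stress minus normal difference was 2.67 points for 16 to 18 bases, -4.67 for 19 to 21, -1 for 22 to 24, 4 for first base A, -4.67 for C and 7.67 for G. With identical counts entered once it was 15.6 points for tRNA, -6.08 for snoRNA, 1.69 for rRNA, -5.35 for precursor and -5.81 for mature miRNA. Directions reversed for miR-169m (-1.06 with DESeq2, -1.31 with every entry entered), its precursor (-1.02 and -1.27) and a tRNA profile of 5 entries (-1.01 and -1.14); the cause was not tested. Normal replicate 3, with 2718 annotated counts, limits what its zeros show.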
